A study of Mus musculus with 6 samples.

Results

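The genes described here are the SWI/SNF, ARID and CHD chromatin remodellers of mouse hematopoietic stem cells (HSC), from which all blood lineages descend. They were chosen by name alone, as every gene of the table whose symbol begins with Smarc, with Arid followed by a digit from 1 to 5, or with Chd followed by a digit from 1 to 9. This gave 35 of 24062 genes. Of these, 33 carry the name of a remodeller or ARID gene and fall into 12 groups by role. The other two, Chd3os and Smarca5-ps, are a noncoding transcript named after its neighbour Chd3 and a transcribed pseudogene of Smarca5. RNA was sequenced from pools of HSC of 2 genotypes, 3 libraries each. The CDKO mice carried Nr4a1 fl/fl, Nr4a3-/- and a construct labelled Rosa26-ERt2. The control mice carried Nr4a1 fl/fl and Nr4a3-/- without that construct, so animals of both groups lacked Nr4a3, a nuclear receptor, from birth. All mice received tamoxifen at 120 mg per kg on 4 consecutive days, and the sort took place on day 5. Each library was a pool of 3 to 5 mice. The age and sex of the mice and the markers of the sort are not given in the labels used here. The control mice lacked the Rosa26-ERt2 construct, so its own effects and the loss of Nr4a1 cannot be told apart.

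Chromatin remodellers are ATP-driven enzymes that slide, eject or exchange nucleosomes and so set which stretches of DNA transcription factors can reach. The SWI/SNF complexes (BAF, PBAF and ncBAF) are built around the ATPases SMARCA2 or SMARCA4, ISWI complexes around SMARCA1 or SMARCA5, and the NuRD corepressor around CHD3 or CHD4. Many subunits come as pairs of related proteins that occupy the same place in a complex. ARID proteins share an AT-rich interaction domain that binds DNA, and only some of them belong to SWI/SNF. In blood formation, SMARCA4, SMARCA5, ARID1A and CHD4 are known from mouse knockouts to be needed for stem cells or their progeny.

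The libraries held 32863805, 41475747 and 42772261 counted reads in CDKO pools, against 39111308, 36464747 and 42348692 in control pools, and levels are given as reads per 1000000 counted reads (CPM). With 0 reads in a library, a level of up to 0.0701 to 0.0913 CPM was still possible, by library, from counting error alone (3 counts). Nr4a1, the gene with floxed alleles, was at 8.52, 9.76 and 9.12 CPM in CDKO libraries, against 15.2, 13.4 and 12.9 CPM in control libraries. It fell by 0.55 on the log2 scale (SE 0.122, limma adjusted p = 0.00204). Which exons the deletion removes is not stated, so remaining reads do not measure its extent. Nr4a3 had no read in any of the 6 libraries. Cebpa, a myeloid transcription factor, averaged 0.892 ± 0.146 CPM in CDKO and 6.75 ± 1.57 CPM in control libraries (SD, n = 3 each). All 12 HSC markers examined were present, and their summed level was 4573 to 4767 CPM in CDKO and 4990 to 5235 CPM in control libraries. Among them 5 rose and 6 fell past the test. By that test 31.1% of all genes tested were higher and 35.2% lower, 66.2% together, the share to set beside the marker counts here. Summed levels of markers of other cells differed between genotypes. The 12 neutrophil markers found summed to 20.2 to 88.5 CPM in CDKO and 803 to 1054 CPM in control libraries, and 11 of them fell. Erythroid markers summed to 2397 to 2609 CPM in CDKO and 3008 to 3247 CPM in control libraries, with 6 of 9 tested lower; most of that sum was Car2, and Hbb-bt, Hba-a1 and Hba-a2 were at 0. Of the mast cell and basophil markers 5 of 6 tested fell, with sums of 455 to 479 CPM in CDKO and 689 to 729 CPM in control libraries, mostly from Gata2, while Cma1 and Tpsb2 were at 0. Of the megakaryocyte markers 6 of 7 tested rose, with sums of 561 to 571 CPM in CDKO and 408 to 432 CPM in control libraries. Lymphoid markers summed to 116 to 120 CPM in CDKO and 86.6 to 102 CPM in control libraries, where 2 of 5 tested rose and 1 fell and Cd3e, Ms4a1 and Rag1 were at 0. The part of these cell type markers in the results on remodellers was not tested. In bulk RNA, fewer cells of a type and less RNA per cell cannot be told apart.

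Of the 35 genes, 33 had a mean of at least 10 reads over the 6 libraries and were tested. A gene is called higher or lower where the limma adjusted p for CDKO minus control on log2(CPM + 1), adjusted over all 13732 genes tested, is under 0.05. By this rule 10 of the 33 rose in CDKO, 6 fell and 17 did not pass. The called share was 48.5%, beside 66.2% of all genes tested (31.1% higher and 35.2% lower). Without Chd3os and Smarca5-ps it was 45.2%. The median size of the difference was 0.22 on the log2 scale, beside 0.34 for all genes tested, and the signed median was -0.03, beside -0.02. A change of at least 1.5-fold was called for Chd3os alone, beside 29.1% of all genes tested. The 3 CDKO values and the 3 control values did not overlap for 17 of the 33, beside 70.7% of all genes tested, with CDKO above for 10 and below for 7. Of the 16 called genes, 15 were among these and Chd7 was not. These are well measured genes, with a median level of 115 CPM, beside 35.1 CPM over all genes tested, and a median coefficient of variation of 6.11% in CDKO and 5.06% in control libraries. Among genes of 100 to 300 CPM, 9 of the 14 remodeller genes were called, beside 67.7% of all 2428 genes at that level, and the median size was 0.25, beside 0.20. Among genes of 30 to 100 CPM, 2 of 7 were called, beside 64.9% of all 4498 genes at that level, and the median size was 0.14, beside 0.27. The authors' deposited table, from DESeq2, gave the same call for all 33 genes.

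**Figure D1:**
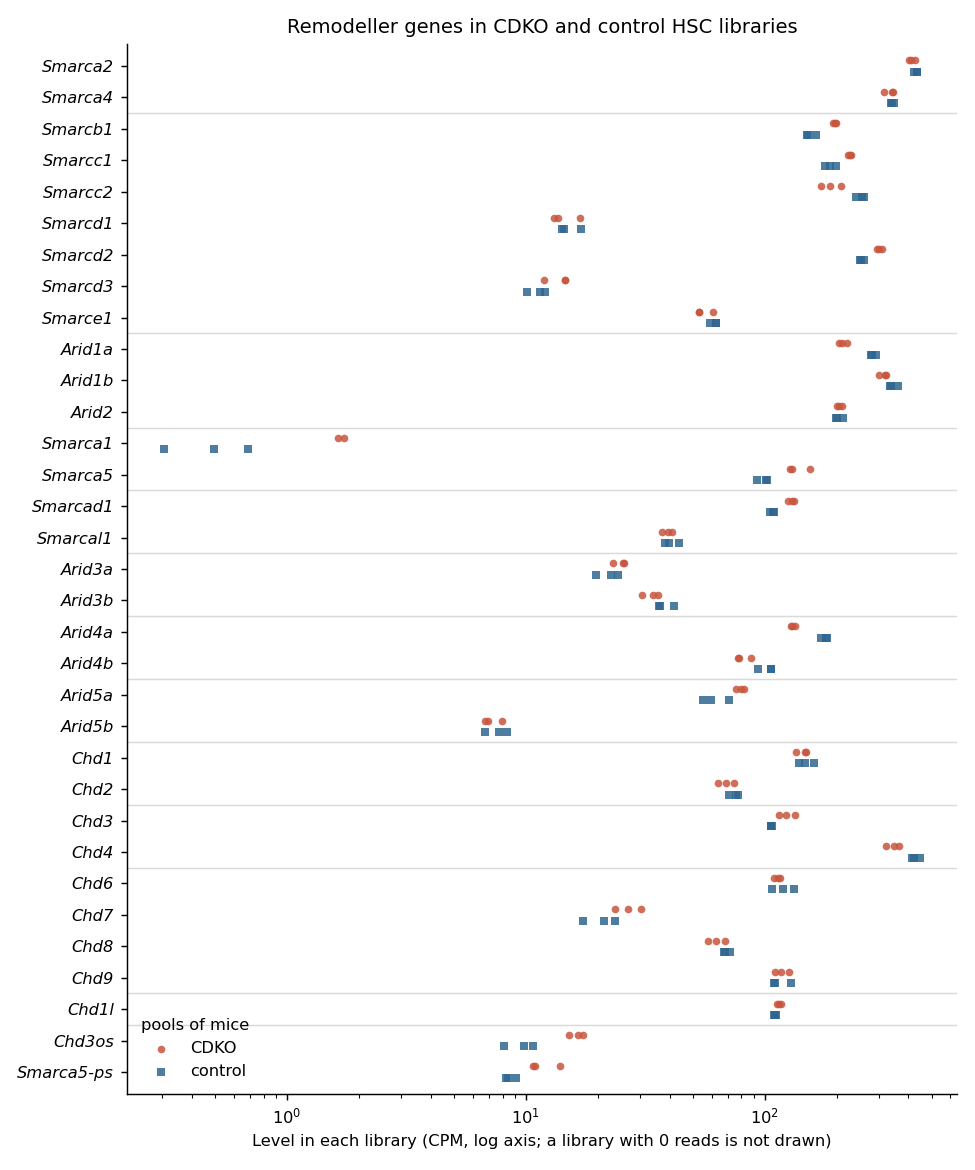
Level of each tested remodeller gene in each library, in CPM on a log axis, with CDKO pools as circles above control pools as squares and genes grouped by role; a library with 0 reads is not drawn. Circles and squares separate for 17 of the 33 genes, among them Arid4a, Arid1a, Smarcc2 and Smarcb1, and lie on top of each other for the ATPase genes Smarca2 and Smarca4.

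**Figure D2:**
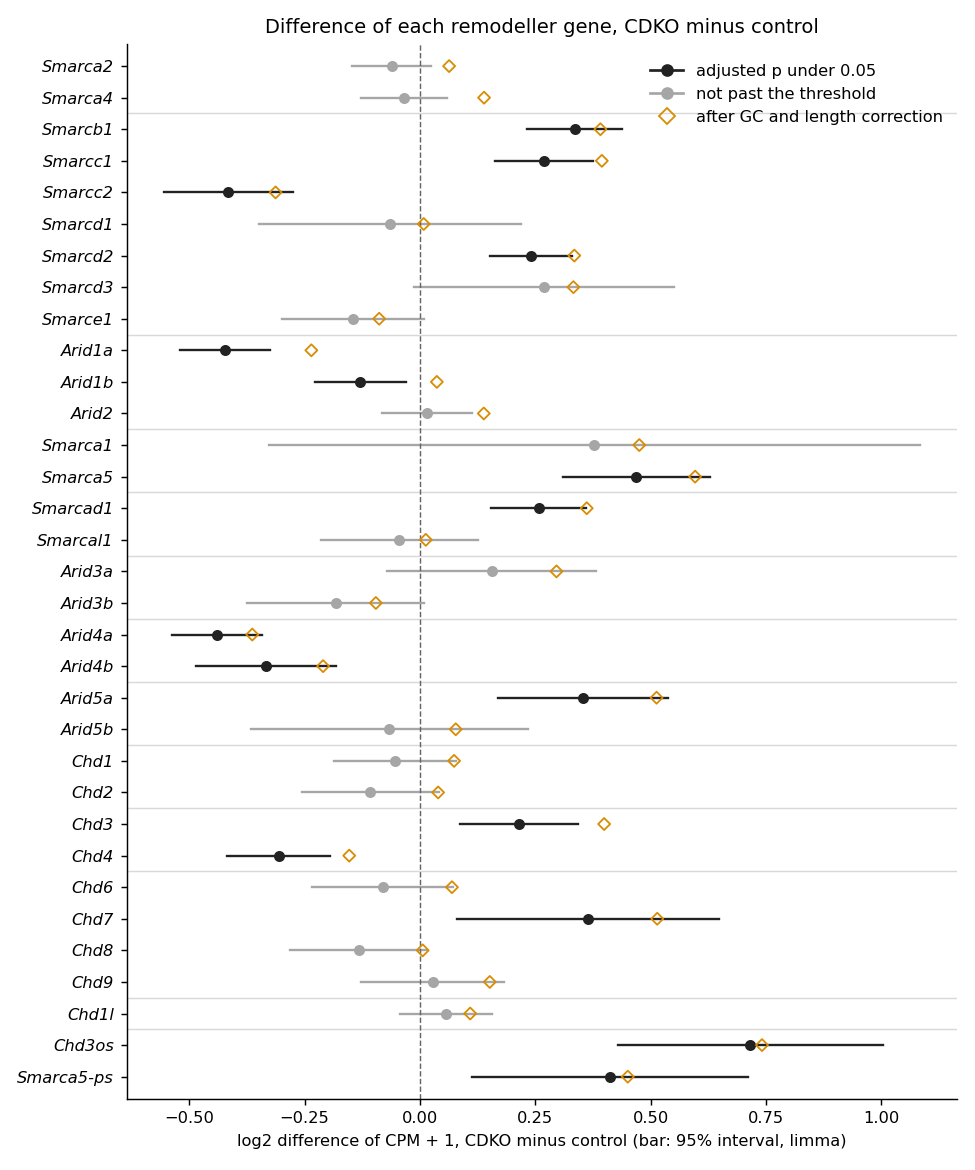
Difference of each tested gene on the log2(CPM + 1) scale, CDKO minus control, with its 95% interval from limma; black marks genes with an adjusted p under 0.05 and open diamonds give the value after correction for GC content and length of transcripts. The 10 genes called higher and 6 called lower lie between -0.44 (Arid4a) and 0.72 (Chd3os), and diamonds lie to the right of the points.

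The ATPases at the centre of SWI/SNF did not pass the test, and their intervals were narrow. Smarca2, which encodes the ATPase also called BRM, had 409, 426 and 403 CPM in CDKO libraries, against 424, 433 and 436 CPM in control libraries. Its log2 difference was -0.06, with a 95% interval of -0.15 to 0.02 (limma adjusted p = 0.188). Smarca4, which encodes BRG1, had 317, 344 and 340 CPM in CDKO libraries, against 347, 341 and 337 CPM in control libraries. The groups overlapped for both genes. For Smarca4 the interval was -0.13 to 0.06 (limma adjusted p = 0.493), so on that scale a rise of more than 4.20% lies outside it. Both were among the most abundant of these transcripts. Per kilobase of transcript, Smarca2 averaged 69.7 CPM in CDKO and 72.7 CPM in control libraries, and Smarca4 averaged 52.3 CPM in CDKO and 53.6 CPM in control libraries. These calls depended on scaling, since Smarca2 passed as lower after quantile normalization (log2 difference -0.13, adjusted p = 0.00739) and Smarca4 passed as higher once libraries were corrected for GC content and length (0.14, adjusted p = 0.00886).

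Of the 7 core and accessory subunits of SWI/SNF, 3 were called higher and 1 lower and 3 did not pass, a called share of 57.1%, beside 66.2% of all genes tested (31.1% higher and 35.2% lower). Smarcb1 encodes the SNF5 subunit that helps hold the complex on the nucleosome. It had 196, 193 and 199 CPM in CDKO libraries, against 151, 151 and 164 CPM in control libraries. Every CDKO library was above every control library, and the mean was 1.26-fold higher (log2 difference 0.34, SE 0.047, limma adjusted p = 7.81e-05). The paralogs Smarcc1 and Smarcc2 encode BAF155 and BAF170, which pair up as the scaffold on which the rest of the complex is assembled. Smarcc1 had 224, 230 and 228 CPM in CDKO libraries, against 200, 189 and 178 CPM in control libraries. It rose by 0.27 on the log2 scale (SE 0.048, limma adjusted p = 0.00048). Smarcc2 went the other way and had 173, 188 and 209 CPM in CDKO libraries, against 242, 260.5 and 255 CPM in control libraries. Its log2 difference was -0.41 (SE 0.063, limma adjusted p = 0.000146), and the groups did not overlap for either gene.

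Promoter windows of these paralogs are shown because the genes moved in opposite directions while sharing a CpG-rich start. Each window, from RefSeq on GRCm38.p6, runs 250 bases before to 50 bases after an annotated start on the gene's strand, 5′ to 3′, with each CG dinucleotide in capitals. Smarcc1 (chr9:110131774-110132073, plus strand) held 33 CG dinucleotides at 66.0% GC, and Smarcc2 (chr10:128458986-128459285, plus strand) held 48 at 81.0% GC. Smarcd2 (chr11:106267583-106267882, minus strand) is set beside them because its window held only 4, at 55.0% GC; that start lies inside the annotated gene, which spans bases 106263171 to 106272998 of chromosome 11.
Smarcc1: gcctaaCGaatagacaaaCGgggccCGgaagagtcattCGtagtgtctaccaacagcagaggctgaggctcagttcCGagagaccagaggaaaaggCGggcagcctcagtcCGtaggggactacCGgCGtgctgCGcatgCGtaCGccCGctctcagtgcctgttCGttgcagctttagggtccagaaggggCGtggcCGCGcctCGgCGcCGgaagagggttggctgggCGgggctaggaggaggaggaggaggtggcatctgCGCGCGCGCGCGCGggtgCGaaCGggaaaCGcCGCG
Smarcc2: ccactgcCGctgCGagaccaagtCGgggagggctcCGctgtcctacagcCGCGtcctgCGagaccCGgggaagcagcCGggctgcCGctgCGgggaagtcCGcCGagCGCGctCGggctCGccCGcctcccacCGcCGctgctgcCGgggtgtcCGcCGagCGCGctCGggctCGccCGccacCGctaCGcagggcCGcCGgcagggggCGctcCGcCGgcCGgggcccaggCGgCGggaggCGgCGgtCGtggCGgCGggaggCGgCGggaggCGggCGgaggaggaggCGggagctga
Smarcd2: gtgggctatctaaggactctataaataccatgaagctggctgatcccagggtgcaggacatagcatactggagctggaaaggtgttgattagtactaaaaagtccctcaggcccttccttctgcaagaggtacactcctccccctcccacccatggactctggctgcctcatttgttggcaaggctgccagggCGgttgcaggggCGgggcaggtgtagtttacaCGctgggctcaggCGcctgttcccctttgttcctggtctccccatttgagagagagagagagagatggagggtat
The observed over expected CG ratio was 1.05 for Smarcc1, 0.986 for Smarcc2 and 0.177 for Smarcd2. The median was 0.849 over 31 windows of 25 remodeller genes, beside 0.384 over all 32851 windows, and the median GC content was 65.7%, beside 52.7%. Those 32851 windows cover 27025 annotated genes and were not limited to the 13732 genes tested. They are therefore no background of genes expressed at a like level.

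Smarcd2, which encodes the BAF60b accessory subunit known for its part in granulocyte development, had 295, 301 and 310 CPM in CDKO libraries, against 262, 251 and 253 CPM in control libraries. It rose 1.18-fold without overlap (log2 difference 0.24, SE 0.041, limma adjusted p = 0.000305). Its paralogs were far lower: Smarcd1 averaged 14.5 ± 2.06 CPM in CDKO and 15.2 ± 1.55 CPM in control libraries, and Smarcd3 averaged 13.7 ± 1.6 CPM in CDKO and 11.2 ± 0.938 CPM in control libraries (SD, n = 3 each). Neither passed (limma adjusted p = 0.674 and 0.0847), although Smarcd3 did in 5 of 18 other fits, such as without CDKO replicate 1 (adjusted p = 0.0343) and by DESeq2 (adjusted p = 0.0280). Smarcd3 overlaps the protein-coding gene Chpf2 in the annotation, and the strand setting of the counting is not given in the sources used here. Smarce1, which encodes the HMG-box subunit BAF57, averaged 55.5 ± 4.46 CPM in CDKO and 61.3 ± 2.07 CPM in control libraries, with overlap (limma adjusted p = 0.0887); without CDKO replicate 3 it passed as lower (adjusted p = 0.0196).

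The ARID subunits decide which form of SWI/SNF is made: ARID1A and ARID1B are alternatives within BAF, and ARID2 belongs to PBAF. Arid1a had 221, 211 and 204 CPM in CDKO libraries, against 293, 278 and 282 CPM in control libraries. Its mean fell by 25.4%, and every CDKO library lay under every control library (log2 difference -0.42, SE 0.044, limma adjusted p = 9.55e-06). Arid1b had 321, 322 and 302 CPM in CDKO libraries, against 336, 337 and 360 CPM in control libraries. The Arid1b groups did not overlap either, but the difference was smaller (-0.13, SE 0.045, limma adjusted p = 0.0245). That call was lost without CDKO replicate 3 (adjusted p = 0.0887), without control replicate 3 (0.110) and after the GC and length correction, where the difference was 0.04 (0.530). Arid2 had 212, 205 and 202 CPM in CDKO libraries, against 199, 200 and 213 CPM in control libraries, with overlap and a 95% interval of -0.08 to 0.11 on the log2 scale (limma adjusted p = 0.784). After the GC and length correction Arid2 passed as higher (0.14, adjusted p = 0.0213). The called share of these 3 genes was 66.7%, beside 66.2% of all genes tested.

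A window at 1 of the annotated Arid1a starts (chr4:133753936-133754235, GRCm38.p6, minus strand) is shown because it was 1 of 2 among the 31 windows that held an E2F motif, searched as TTTCCCGC or TTTGGCGC on both strands and given here in capitals. The Arid4b window (chr13:14063534-14063833, plus strand) was the only 1 of the 31 with the interferon-stimulated response element, also in capitals.
Arid1a: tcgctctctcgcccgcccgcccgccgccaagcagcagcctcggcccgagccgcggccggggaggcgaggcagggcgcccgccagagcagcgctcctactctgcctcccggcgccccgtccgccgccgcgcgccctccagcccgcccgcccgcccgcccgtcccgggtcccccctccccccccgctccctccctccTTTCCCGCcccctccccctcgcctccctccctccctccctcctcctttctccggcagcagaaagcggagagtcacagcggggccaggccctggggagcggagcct
Arid4b: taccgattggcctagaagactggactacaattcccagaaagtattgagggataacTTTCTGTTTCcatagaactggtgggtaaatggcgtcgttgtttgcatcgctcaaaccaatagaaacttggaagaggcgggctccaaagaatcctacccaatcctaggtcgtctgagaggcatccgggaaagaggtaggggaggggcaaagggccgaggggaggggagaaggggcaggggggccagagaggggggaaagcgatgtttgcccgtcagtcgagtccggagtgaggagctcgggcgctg
The Arid1a motif lay at position -55 relative to the start and the other E2F match, in Smarcd1, at -131. That Arid1a start lies inside the annotated gene, which spans bases 133679008 to 133756769 of chromosome 4. The other Arid1a window (chr4:133756720-133757019, minus strand) held no E2F motif. The Arid4b element lay at -195. Over all 32851 windows 1.56% held the E2F motif and 3.44% the interferon response element. None of the 31 windows held the NR4A site AAAGGTCA (1.51% of all windows), the C/EBP site TTGCGCAA (0.183%), the ETS site CCGGAAGT (3.89%) or the palindromic NRF1 site (0.971%). No window of these genes held more than 1 of the motifs. Chd1, Chd2, Chd3, Chd7, Arid2, Arid3a, Arid4a, Smarce1, Chd3os and Smarca5-ps had no window and were not searched. A match is a run of letters and no measure of binding.

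Of the ISWI ATPase genes, Smarca5 rose and Smarca1, which was low, did not pass. Smarca5 encodes SNF2H, the ATPase that spaces nucleosomes in most cells. It had 154, 128 and 130 CPM in CDKO libraries, against 102, 92.6 and 102 CPM in control libraries. The groups were apart, CDKO replicate 1 being the highest, and the mean was 1.39-fold higher (log2 difference 0.47, SE 0.073, limma adjusted p = 0.000166). This was the largest difference among the 14 called genes that carry a remodeller or ARID name. Smarca1, which encodes SNF2L, had 0, 1.74 and 1.64 CPM in CDKO libraries (0, 72 and 70 reads), against 0.307, 0.494 and 0.685 CPM in control libraries (12, 18 and 29 reads). The ratio of mean CPM was 2.27, with CDKO replicate 1 below and the other CDKO libraries above all control libraries. It did not pass (limma adjusted p = 0.318) but did without CDKO replicate 1, the library with no read (log2 difference 0.85, adjusted p = 0.00193). Smarca5-ps, the pseudogene on chromosome 4, rose with its parent gene on chromosome 8. It had 14.0, 10.9 and 10.7 CPM in CDKO libraries, against 8.46, 8.25 and 9.09 CPM in control libraries (log2 difference 0.41, SE 0.136, limma adjusted p = 0.0189). Reads of the pseudogene can come from its near-identical parent, so its value is uncertain, and the call was lost without CDKO replicate 1 (adjusted p = 0.0796) or control replicate 2 (0.0617).

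Smarcad1 and Smarcal1 encode ATPases of the same superfamily with roles at replication forks and DNA breaks. Smarcad1 had 131, 132 and 125 CPM in CDKO libraries, against 106, 110 and 109 CPM in control libraries. All CDKO values lay above all control values (log2 difference 0.26, SE 0.047, limma adjusted p = 0.000534). Smarcal1 averaged 39.3 ± 1.82 CPM in CDKO and 40.6 ± 2.78 CPM in control libraries (SD, n = 3 each), with overlap (limma adjusted p = 0.630). It overlaps the protein-coding gene Marchf4.

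Among the ARID genes outside SWI/SNF, both ARID4 genes fell, 1 of 2 tested ARID5 genes rose and neither tested ARID3 gene passed. ARID4A and ARID4B bind the retinoblastoma protein and belong to the SIN3 histone deacetylase corepressor. Arid4a had 130, 134 and 129 CPM in CDKO libraries, against 182, 180 and 172 CPM in control libraries. It was the lowest of the called differences, at -0.44 (SE 0.045, limma adjusted p = 7.76e-06), and the groups were far apart relative to their spread. Arid4b had 77.8, 88.0 and 77.2 CPM in CDKO libraries, against 93.9, 107 and 106 CPM in control libraries. Its groups did not overlap either (log2 difference -0.33, SE 0.070, limma adjusted p = 0.00129). Arid5a encodes an RNA-binding protein that stabilises inflammatory transcripts. It had 75.8, 79.6 and 82.0 CPM in CDKO libraries, against 55.2, 71.0 and 59.8 CPM in control libraries, and rose 1.28-fold (log2 difference 0.35, SE 0.084, limma adjusted p = 0.00303). Arid5b, a factor linked to B-lineage leukemia in people, averaged 7.22 ± 0.625 CPM in CDKO and 7.61 ± 0.80 CPM in control libraries, with overlap (limma adjusted p = 0.684).

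ARID3A, also called Bright, is a transcription factor of B cells and of fetal blood formation, and ARID3B is its close relative. Arid3a averaged 24.8 ± 1.41 CPM in CDKO and 22.3 ± 2.33 CPM in control libraries (limma adjusted p = 0.203), and passed as higher after the GC and length correction (0.30, adjusted p = 0.0206). Arid3b had 30.7, 35.7 and 34.0 CPM in CDKO libraries, against 36.6, 36.2 and 41.6 CPM in control libraries. The Arid3b groups did not overlap, yet the gene did not pass (log2 difference -0.18, SE 0.088, limma adjusted p = 0.0847). Arid3c was under the filter, at 0.426, 0.217 and 0.351 CPM in CDKO libraries and 0, 0.110 and 0.0945 CPM in control libraries, and was not tested.

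CHD1 and CHD2 are remodellers of active, transcribed chromatin, and their genes did not pass. Chd1 had 135, 148 and 147 CPM in CDKO libraries, against 139, 160 and 148 CPM in control libraries, and its 95% interval ran from -0.19 to 0.08 on the log2 scale (limma adjusted p = 0.443). Chd2 averaged 69.3 ± 5.32 CPM in CDKO and 74.6 ± 3.32 CPM in control libraries (SD, n = 3 each), with overlap (limma adjusted p = 0.180). Chd1l, which encodes the PARP-activated remodeller ALC1, had 113, 114 and 117 CPM in CDKO libraries, against 112, 109 and 110 CPM in control libraries. These groups did not overlap, but the difference of 0.06 did not pass (SE 0.046, limma adjusted p = 0.296). Chd1l overlaps the protein-coding gene Fmo5.

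The ATPase genes of NuRD moved in opposite directions. CHD4, also called Mi-2 beta, is the main NuRD ATPase of blood cells, and CHD3 is its paralog. Chd4 had 349, 365 and 323 CPM in CDKO libraries, against 446, 415 and 420 CPM in control libraries. It fell in all CDKO libraries relative to all control libraries (log2 difference -0.31, SE 0.051, limma adjusted p = 0.000265). Chd3 had 123, 134 and 115 CPM in CDKO libraries, against 106, 106 and 107 CPM in control libraries. It rose without overlap (0.22, SE 0.059, limma adjusted p = 0.00685) and the SD of the control values was 0.652 CPM. Chd3os had 17.3, 16.5 and 15.1 CPM in CDKO libraries, against 8.11, 9.87 and 10.8 CPM in control libraries. Its 1.70-fold rise was the largest among the 16 called genes (log2 difference 0.72, SE 0.131, limma adjusted p = 0.000521). RefSeq lists Chd3os as a synonym of Rnf227, which it annotates as a noncoding transcript on chromosome 11 from base 69340796 to 69342641 of GRCm38.p6. Chd3 spans bases 69343273 to 69369499 of the same chromosome, so they do not overlap there. Whether the deposited row covers this transcript is uncertain, because the gene model used for counting is not given in the sources used here.

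CHD6 to CHD9 form the third CHD subfamily, known from CHD7 in CHARGE syndrome and CHD8 in autism. Chd7 had 23.6, 26.7 and 30.4 CPM in CDKO libraries, against 17.3, 23.7 and 21.2 CPM in control libraries. The lowest CDKO library lay just under the highest control library, and the difference of 0.36 passed narrowly (SE 0.129, limma adjusted p = 0.0266). That call was lost without CDKO replicate 2 (0.0611), without CDKO replicate 3 (0.113), without control replicate 1 (0.114), without control replicate 3 (0.0555) and with no filter (0.0645). Chd8 had 62.6, 68.3 and 58.2 CPM in CDKO libraries, against 68.2, 71.5 and 67.6 CPM in control libraries, and did not pass (log2 difference -0.13, limma adjusted p = 0.104) except without CDKO replicate 2 (0.0320). Chd6 averaged 113 ± 3.18 CPM in CDKO and 120 ± 12.6 CPM in control libraries, and Chd9 averaged 118 ± 7.89 CPM in CDKO and 116 ± 10.9 CPM in control libraries (SD, n = 3 each). Neither passed (limma adjusted p = 0.321 and 0.746), although Chd6 passed as lower without control replicate 1 (0.0436) and Chd9 as higher after the GC and length correction with a block on replicate number (0.0432). Chd5, the neuronal member of the CHD3 to CHD5 subfamily, was under the filter, at 0.0156 ± 0.0270 CPM in CDKO and 0.0164 ± 0.0142 CPM in control libraries.

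The balance within pairs of paralogs was compared as the log2 ratio of their CPM in each library, which does not depend on library scaling. Of 8 pairs with both genes measured in every library, 4 had ratios that did not overlap between groups. No such share was computed for ratios of other gene pairs. For the CPM of single genes, the groups did not overlap for 70.7% of all genes tested. With 3 libraries a group the exact two-sided permutation test cannot give a p under 0.1, so no pair could pass at 0.05, and adjustment over the 8 pairs gave 0.2 at best. Smarcc2 over Smarcc1 averaged -0.27 ± 0.13 in CDKO and 0.42 ± 0.13 in control libraries, a difference of -0.69 (SD, n = 3 each, exact permutation p = 0.1, adjusted p = 0.2). Smarcc2 was thus the less abundant of the pair by CPM in all 3 CDKO libraries and the more abundant in all 3 control libraries. Per kilobase of the longest annotated transcript, Smarcc2 made up 51.3% ± 2.20 of the pair in CDKO and 62.9% ± 2.05 in control libraries. Its shares in the CDKO libraries were 49.4%, 50.8% and 53.7%, so per kilobase it was not the less abundant in all of them. Chd3 over Chd4 averaged -1.48 ± 0.03 in CDKO and -2.0 ± 0.06 in control libraries (exact permutation p = 0.1, adjusted p = 0.2, n = 3 each). Per kilobase, Chd3 was 24.9% ± 0.384 of the pair in CDKO and 18.7% ± 0.653 in control libraries, so Chd4 remained the larger part in both groups. Arid1b over Arid1a averaged 0.57 ± 0.04 in CDKO and 0.28 ± 0.08 in control libraries (exact permutation p = 0.1, adjusted p = 0.2, n = 3 each). Arid1b per kilobase was 51.8% ± 0.676 of the pair in CDKO and 46.7% ± 1.31 in control libraries. Arid3b over Arid3a was the fourth such pair, at 0.43 ± 0.03 in CDKO and 0.78 ± 0.26 in control libraries (exact permutation p = 0.1, adjusted p = 0.2, n = 3 each).

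The ratios overlapped for the other 4 pairs. Smarca2 over Smarca4 differed by -0.03, Chd2 over Chd1 by -0.05, Arid4b over Arid4a by 0.11 and Smarcd2 over Smarcd1 by 0.31 between groups (exact permutation p = 0.6, 0.6, 0.4 and 0.2, n = 3 each). The summed level of a pair per kilobase also differed in places. Unlike the ratios, these sums depend on library scaling. They were not tested and not corrected for GC content and length. Arid1a plus Arid1b came to 53.7 ± 1.90 CPM per kilobase in CDKO and 65.2 ± 1.3 in control libraries, and Arid4a plus Arid4b to 40.0 ± 1.58 in CDKO and 53.1 ± 1.02 in control libraries. Chd3 plus Chd4 came to 68.7 ± 4.46 in CDKO and 78.4 ± 2.42 in control libraries, and Smarcc1 plus Smarcc2 to 81.0 ± 4.32 in CDKO and 88.1 ± 1.51 in control libraries. Smarcd1 plus Smarcd2 went the other way, at 114 ± 2.39 in CDKO and 97.6 ± 2.49 in control libraries, while Smarca2 plus Smarca4 came to 122 ± 3.56 in CDKO and 126 ± 0.346 in control libraries. Smarca1 over Smarca5 was left out because Smarca1 had no read in CDKO replicate 1.

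**Figure D3:**
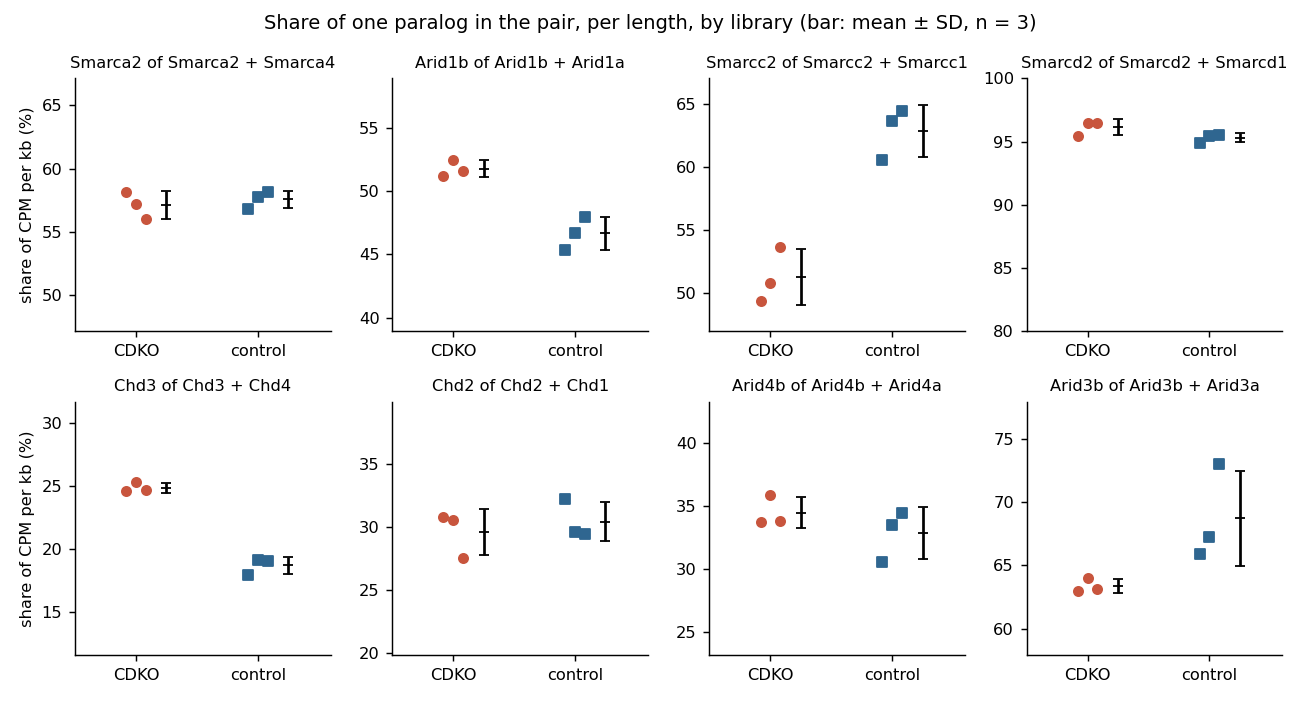
Share of the first-named gene in each of 8 paralog pairs, as percent of the pair's summed CPM per kilobase of transcript, in each library, with mean and SD beside the points; each panel spans 20 percentage points and does not start at 0. CDKO and control libraries separate for Arid1b, Smarcc2, Chd3 and Arid3b and mix for Smarca2, Smarcd2, Chd2 and Arid4b.

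The partner genes of the same complexes, and related genes, were listed by textbook membership. Over all these lists 45 of the 75 genes tested were called, beside 66.2% of all genes tested (31.1% higher and 35.2% lower). Of 16 other BAF, PBAF and ncBAF subunits 5 rose and 4 fell, a called share of 56.25%, with a median of 0.04 on the log2 scale. Brd7, the bromodomain subunit of PBAF, averaged 152 ± 4.98 CPM in CDKO and 107 ± 1.57 CPM in control libraries (0.50, limma adjusted p = 4.26e-06). Actl6a, the actin-like subunit shared by several remodellers, averaged 167 ± 5.80 CPM in CDKO and 127 ± 4.68 CPM in control libraries (0.39, limma adjusted p = 3.32e-05). Ss18l1, whose product replaces SS18 in neurons, also rose (0.54, limma adjusted p = 0.0045). On the other side, Brd9, the bromodomain subunit that defines ncBAF, averaged 46.1 CPM in CDKO and 63.3 CPM in control libraries (-0.45, limma adjusted p = 5.22e-05). Dpf3, a histone-reading subunit, was at 0, 0.241 and 0.374 CPM in CDKO libraries, against 3.02, 2.41 and 2.36 CPM in control libraries (-1.59, limma adjusted p = 1.04e-05). Bicral, an ncBAF subunit listed under its older symbol Gltscr1l, fell as well (-0.23, limma adjusted p = 0.00825), but did not pass after the GC and length correction (-0.10, adjusted p = 0.177).

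Of the 8 ISWI partner genes tested, 5 fell, 1 rose and Rsf1 and Pole3 did not pass, with a median of -0.37; the called share was 75.0%, beside 66.2% of all genes tested. Bptf, the large subunit that directs the NURF complex to methylated histone H3, had 94.4, 97.1 and 84.9 CPM in CDKO libraries, against 186, 176 and 172 CPM in control libraries, the largest fall of the list (-0.94, limma adjusted p = 3.41e-07). Baz2a, the partner of SMARCA5 in the nucleolar NoRC complex, averaged 66.5 CPM in CDKO and 105 CPM in control libraries (-0.65, limma adjusted p = 1.71e-05). Baz2b followed (-0.41, limma adjusted p = 5.06e-05). Baz1b, the WSTF subunit, was the exception at 196 CPM in CDKO and 177 CPM in control libraries (0.15, limma adjusted p = 0.0170), and was called in 15 of 18 other fits.

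Of the 12 NuRD partners tested, 4 rose, 2 fell and 6 did not pass, with a median of 0.11; the called share was 50%, beside 66.2% of all genes tested. Rbbp4, a histone chaperone shared with other corepressors, averaged 463 CPM in CDKO and 371 CPM in control libraries (0.32, limma adjusted p = 3.45e-05). Hdac2, a catalytic deacetylase subunit, rose by 0.27 (limma adjusted p = 0.00165). Mta2 rose by 0.13 (limma adjusted p = 0.0148) and was called in 15 of 18 other fits. Mta3, a paralog of Mta2 that takes its place in NuRD, averaged 60.6 CPM in CDKO and 89.1 CPM in control libraries (-0.55, limma adjusted p = 1.03e-05). Gatad2b, a bridging subunit to CHD4, fell by 0.34 on the log2 scale (limma adjusted p = 0.0279), but was called in only 11 of 18 other fits and not after the GC and length correction (adjusted p = 0.149).

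The other 3 lists held genes of other remodelling complexes, other SNF2-type ATPase genes and other ARID domain genes. Of 21 genes of INO80, SRCAP and TIP60 complexes, 3 rose and 5 fell, with a median of -0.06. The called share was 38.1%, beside 66.2% of all genes tested. Actr8, Dmap1 and Nfrkb fell by 0.59, 0.51 and 0.40 on the log2 scale and Ruvbl2, Ruvbl1 and Ino80e rose by 0.21, 0.17 and 0.31. Of 13 other SNF2-type ATPase genes, 6 rose and 5 fell, with a median of 0.18 and a called share of 84.6%, beside the same 66.2%. The repair genes Rad54l and Ercc6l2 and the mitotic gene Ercc6l rose by 0.80, 0.79 and 0.74, and Ercc6, Shprh and Btaf1 fell by 0.65, 0.54 and 0.31. All 5 other ARID domain genes were called, beside 66.2% of all genes tested: the histone demethylase genes Kdm5b, Kdm5c and the Y-linked Kdm5d rose by 0.13, 0.13 and 0.42, while Jarid2, a cofactor of Polycomb repressive complex, and Kdm5a fell by 0.39 and 0.28. The sex of the pooled mice is not given, so a different share of males and a change of Kdm5d cannot be told apart. The Kdm5b groups overlapped and its call held in 13 of 18 other fits (adjusted p up to 0.184), that of Kdm5c in 15. Kdm5a kept its call in 17, the exception being the GC and length correction (adjusted p = 0.0565). Beside these medians, that of all genes tested was -0.02.

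**Figure D4:**
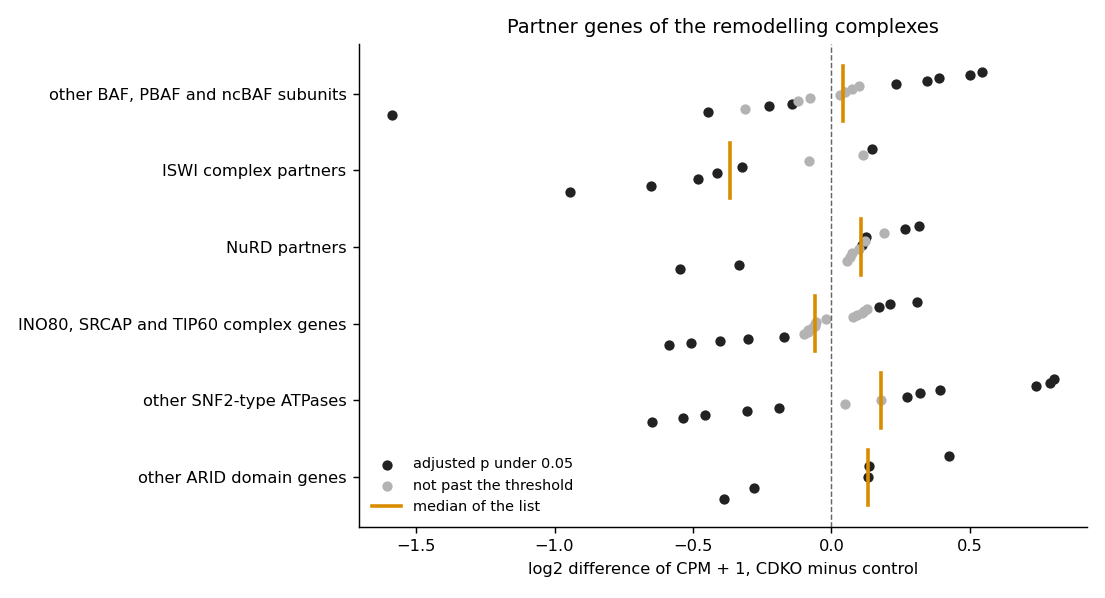
Log2 difference of CPM + 1, CDKO minus control, for the tested genes of 6 lists of partner and related genes, with black points for an adjusted p under 0.05 and a bar at each list's median. ISWI partners have the lowest median (-0.37) and other SNF2-type ATPases the highest (0.18), and Dpf3 lies farthest left at -1.59.

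Remodeller transcripts are long, and length went with the difference across all genes. Their median transcript was 5773 bases, beside 3007 bases over all genes tested, with a median GC content of 51.4%, beside 50.1%. Across all genes with a transcript model, the median log2 difference was 0.02 under 2000 bases and -0.13 at 8000 bases or more, where 72.3% of 683 genes were called. Of the 8 remodeller genes of that length 3 were called, 1 higher and 2 lower. Fitting each library for GC content and length moved the median remodeller gene by 0.12 upward. The corrected medians were 0.11 for remodeller genes and 0.05 for all genes, and 14 remodeller genes were then called higher and 5 lower, in place of 10 and 6. Under that correction the 5 lower genes were Arid4a, Smarcc2, Arid1a, Arid4b and Chd4, with log2 differences of -0.36, -0.31, -0.24, -0.21 and -0.15. The part of transcript length in the results on single genes was not tested beyond this correction.

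**Figure D5:**
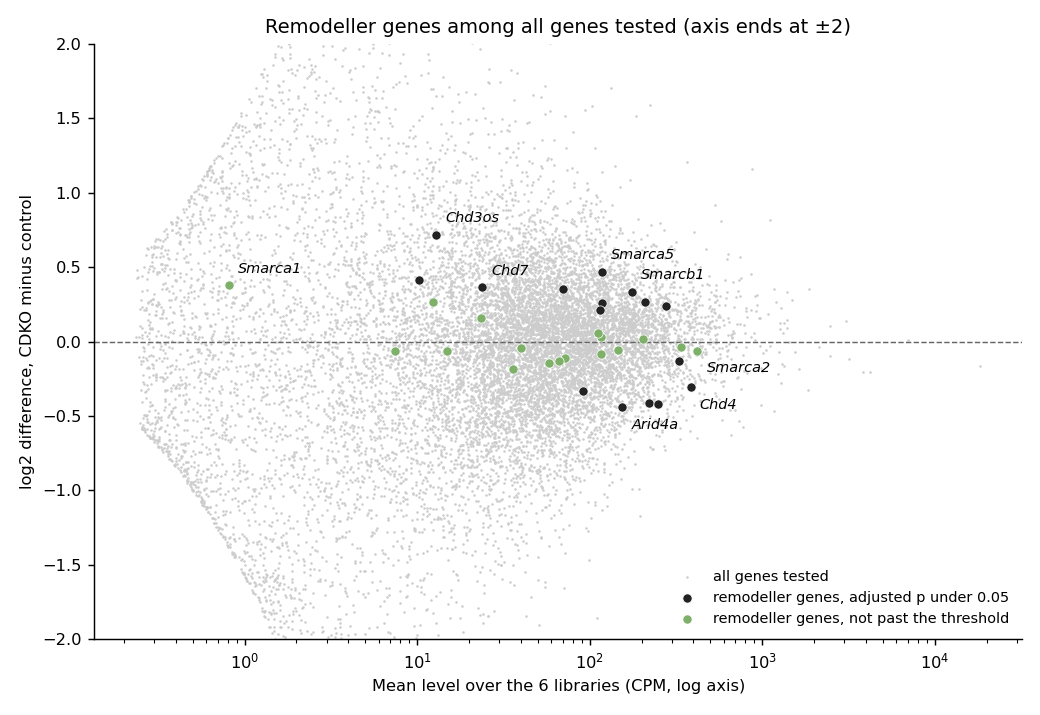
Log2 difference of CPM + 1, CDKO minus control, against mean level over the 6 libraries (CPM, log axis) for all 13732 genes tested in grey, with called remodeller genes in black and the others in green; 349 genes beyond ±2 are not drawn. The remodeller genes lie within the cloud, between -0.44 and 0.72.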

How the data were processed

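The deposited table gives, for 24062 genes, counts per 1000000 (CPM) in each of 6 libraries, with a DESeq2 comparison by the authors. RNA was amplified with a SMARTer ultra low input kit and made into Nextera XT libraries, per the labels' protocols. TopHat2, HTSeq, DESeq2 and the build mm10 are named per the submitters' processing notes, without versions; the gene annotation and strand setting are not given in the sources used here. Dividing the deposited CPM by each library's smallest step gave whole reads for 99.9989% of values above 0 (within 0.01 of a read). The authors' deposited baseMean is a signal scaled by size factors, their deposited log2 fold change is control over CDKO and was sign-turned here, the deposited stat column is a score, and the authors' p-value and adjusted p-value, as deposited, were used for calls set beside these. The deposited log2 standard errors were not used in tests.

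Genes with a mean of at least 10 reads entered a linear model on log2(CPM + 1) (R 4.3.3, limma 3.58.1), a scale that understates changes of low genes, with eBayes and a mean-variance trend, two-sided, and Benjamini-Hochberg adjustment over all 13732 genes. Folds and percent changes are ratios of mean CPM; intervals and SE are from limma. Rows with a date in place of a symbol (12) or a shared symbol (2) were left out. The gene members, partner lists, markers and tests were chosen with earlier results of these data known. Named genes were every matched row; in each partner list, up to 3 with the smallest p in each direction. Transcript length and GC content came from the longest protein-coding transcript, or the longest transcript, of GENCODE M21; coordinates and promoter sequences came from RefSeq on GRCm38.p6. Libraries are pools of mice that nothing in the labels pairs, so p-values measure spread between pools.

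Alternatives were DESeq2 1.42.0 and edgeR 4.0.16, both on whole recovered reads, TMM and quantile scaling, pseudocounts of 0.5 and 5, filters of none, 50 reads and 10 CPM, each library left out, a block on replicate number, a loess correction for GC content and length (span 0.3), an adjusted p of 0.1 and a 1.5-fold minimum. The fit was also run on simulated counts in which few genes changed, as many up as down. Far more genes were called in these data, so that run does not measure false calls here.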

Additional observations from a re-analysis of the deposited data

How the results depend on the processing

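Of the 16 called remodeller genes, 13 kept their call and direction in all 18 other fits; Arid1b, Chd7 and Smarca5-ps did not, as given with each gene. Counts of called genes stayed within 1.5 times of 10 higher, 6 lower and 45 partner and related genes in every alternative except the 1.5-fold minimum, which left 1, 0 and 8. edgeR called 10 higher and 6 lower and DESeq2 11 and 6. The replicate numbers were not taken to pair libraries (correlations of same-numbered deviations 0.0518, 0.0483 and -0.0120), and a replicate block gave 10 higher and 6 lower, with 46 partner and related genes. No ratio between paralogs moved by more than its spread in any alternative. A library-wide factor cancels in a ratio, and leaving out a single library cannot move a group's mean by as much as its SD. Those alternatives could therefore not have given another result. Negative differences became positive after the GC and length correction, with or without the block: Smarca2 0.063, Smarca4 0.14, Smarcd1 0.0082, Arid1b 0.037, Smarcal1 0.013, Arid5b 0.078, Chd1 0.074, Chd2 0.039, Chd6 0.069 and Chd8 0.0059. Quantile scaling turned Smarcd1 to 0.025 and Arid5b to 0.071. Leaving out each library gave Smarca4 from -0.056 to 0.0017, Smarcd1 from -0.17 to 0.013, Arid2 from -0.0046 to 0.045, Smarcal1 from -0.085 to 0.0080 and Chd9 from -0.022 to 0.10. The cause was not tested. Depth limits Arid3c and Chd5, which had at most 15 reads in any library. Smarca1 had 0 reads in CDKO replicate 1 and 72 and 70 in the other CDKO libraries.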
